A study of Drosophila melanogaster with 2 samples.

Results

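The assembled arms of the fly genome leave out many short pieces of repeat-rich DNA, which the genome build holds as separate scaffolds, and 3231 of the 150585 pooled candidate regions for Ham binding (2.15%, 95% Wilson interval 2.07% to 2.22%) lay on such scaffolds. They were chosen by name alone, as every row of the pooled ranked list that was not on X, 2L, 2R, 3L, 3R, 4 or Y. Names that begin with X_ or Y_ mark scaffolds given to a sex chromosome without a position, and names that begin with Un_ mark scaffolds given to no chromosome. There were 827 regions on 335 X_ scaffolds, 430 on 125 Y_ scaffolds and 1974 on 648 Un_ scaffolds. RefSeq nevertheless places 163 of the 1974 Un_ regions on scaffolds of "X and Y", 562 on 3CEN and 43 on 2CEN, and gives no chromosome for 1206.

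The regions came from chromatin immunoprecipitation and sequencing of whole embryos of 0 to 24 hours, from the ham-GFP strain, a transgenic line with an insertion that makes a fusion of the protein Ham with eGFP. The fusion was pulled down with an antibody against GFP after sonication to 200 to 800 bp. There was 1 group with 2 biological replicates, which allows no comparison of conditions, and the control experiment that the labels name as possible was not analysed here. Whole embryos mix all cell types, and the fusion protein was read in place of the native one.

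Ham is a zinc finger protein of the PRDM family, known for its part in the fates of sensory organ and olfactory neurons. Scaffold DNA is mostly heterochromatin: satellites, which are short units repeated in tandem, and mobile elements. R1 is a retrotransposon without long terminal repeats that inserts at a fixed site in the 28S ribosomal RNA genes, which lie in arrays on X and Y. HeT-A and TART are retrotransposons that make up the ends of fly chromosomes. A peak in repeated DNA can collect reads from copies elsewhere, and how such reads were placed is not stated.

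The highest region at the score minimum is printed here for R1, for both satellites and for HeT-A, because the results turn on these families. Both 28S rRNA regions and both 5-base repeat regions at the score minimum are printed as well. No region of the other mobile elements is printed. All sequences are from the RefSeq Release 6 genome, plus strand. For the ribosomal pair, 75 bases on either side of the summit are given, and the capitals mark an unbroken run of 44 bases in both windows. The small letters that follow the run match as well, apart from an extra t in the first window.
28S rRNA gene, Un_CP007120:73539-73689: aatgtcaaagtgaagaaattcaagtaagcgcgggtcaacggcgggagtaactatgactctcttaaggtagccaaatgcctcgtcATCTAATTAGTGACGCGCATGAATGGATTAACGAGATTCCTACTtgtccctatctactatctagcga
28S part on an X_ scaffold, X_DS484057:593-743: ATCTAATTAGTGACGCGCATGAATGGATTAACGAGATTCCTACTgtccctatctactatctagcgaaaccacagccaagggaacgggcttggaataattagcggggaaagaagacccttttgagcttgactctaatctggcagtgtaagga
The next lines give 50 bases on either side of the summit. In the R1, satellite and HeT-A lines the capital marks the summit base. In the dodeca line the capitals mark exact units, and in the last pair they mark tandem runs of a 5-base word.
R1, X_DS485303:820-920: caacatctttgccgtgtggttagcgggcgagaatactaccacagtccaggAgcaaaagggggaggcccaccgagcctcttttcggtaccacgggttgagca
Long-unit X satellite, X_DS484679:1423-1523: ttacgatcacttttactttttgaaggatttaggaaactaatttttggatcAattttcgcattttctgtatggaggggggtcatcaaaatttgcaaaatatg
Dodeca satellite, Un_DS484064:1383-1483: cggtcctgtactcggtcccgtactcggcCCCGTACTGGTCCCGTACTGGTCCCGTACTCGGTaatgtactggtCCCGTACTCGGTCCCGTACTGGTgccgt
HeT-A, Y_DS485927:385-485: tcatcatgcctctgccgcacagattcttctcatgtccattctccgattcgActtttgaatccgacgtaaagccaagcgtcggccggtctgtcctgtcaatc
5-base repeat, Un_DS485995:142-242: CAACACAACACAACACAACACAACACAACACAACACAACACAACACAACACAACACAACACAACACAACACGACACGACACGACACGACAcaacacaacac
5-base repeat, Un_CP007100:6250-6350: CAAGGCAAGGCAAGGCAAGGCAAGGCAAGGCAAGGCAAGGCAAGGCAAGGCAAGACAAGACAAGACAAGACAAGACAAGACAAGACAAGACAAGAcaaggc

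In the pooled list 74 scaffold regions were thresholded peaks, and all 74 lay on X_ scaffolds. They were 8.95% of the X_ regions (7.19% to 11.1%), against 0.993% of all candidate regions of the list. None of the 430 Y_ regions and none of the 1974 Un_ regions was thresholded, for which the upper bounds are 0.885% and 0.194%. Every thresholded peak of the deposited lists had a score of at least 830, where the score rises with reproducibility, and this score minimum was reached by 131 scaffold regions (4.05%, 3.43% to 4.79%), against 1.11% of all candidate regions. They were 74 X_, 10 Y_ and 47 Un_ regions. So all X_ regions at the score minimum were listed as thresholded, and all 57 Y_ and Un_ regions at the score minimum were not. A pooled score at the minimum did not require a region in both replicates. Candidate regions of both replicates held the summit for 107 of the 131, a region of replicate 1 alone for 19 and of replicate 2 alone for 5. On the arms 112 of 1533 regions at the score minimum (7.31%) were missing from the thresholded list. The file descriptions record 1 further input for the thresholded lists without saying what it is, and its part in this split was not tested.

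The same split by name stood in each of the other lists. In replicate 1, 91 of 642 X_ regions were thresholded (14.2%, 11.7% to 17.1%), against 0.506% of its list, and 160 scaffold regions reached the score minimum (7.40%), against 0.675%. Those 160 were 91 X_, 17 Y_ and 52 Un_ regions. In replicate 2, 16 of 566 X_ regions were thresholded (2.83%, 1.75% to 4.54%), against 0.767% of its list, and 28 scaffold regions reached the score minimum (1.5%), against 0.817%. Those 28 were 16 X_, 3 Y_ and 9 Un_ regions. In the shorter conservative list 36 of 777 X_ regions were thresholded (4.63%), against 0.541%, and 64 scaffold regions reached the score minimum (2.08%), against 0.598%. No Y_ or Un_ region was thresholded in any list.

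**Figure D1:**
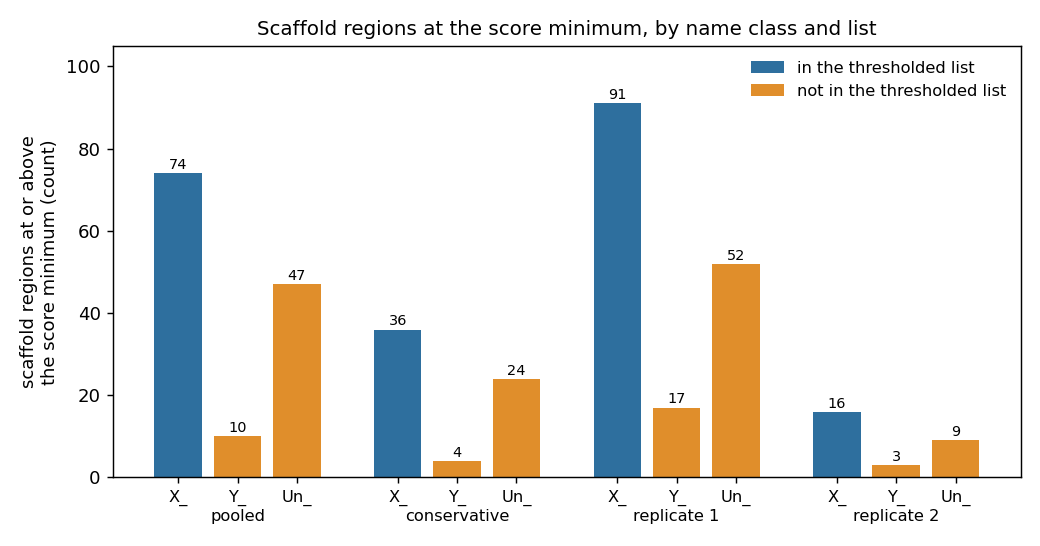
Number of scaffold regions that reached the score minimum (vertical axis, count) for X_, Y_ and Un_ names in the pooled, conservative, replicate 1 and replicate 2 lists, with the number above each bar. Blue marks regions in the thresholded list and orange marks regions missing from it; all X_ bars are blue (74, 36, 91 and 16) and all Y_ and Un_ bars are orange.

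The replicates differed in how much of their lists lay on scaffolds. Scaffolds held 17.6% of the thresholded peaks of replicate 1 (91 of 516), 1.52% of those of replicate 2 (16 of 1050) and 4.95% of the pooled ones (74 of 1495). Counted over all rows at the score minimum, the shares were 23.3%, 2.50% and 7.87%. Among candidate regions of any score the gap was smaller, with 2162 scaffold regions in replicate 1 (2.12%) and 1865 in replicate 2 (1.36%). The depth of the libraries is unknown.

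Scaffold candidates were sparse and mostly low. All 1862 scaffolds of the RefSeq build held 52.5 candidate regions per 100 kb, against 107 per 100 kb on the arms, while regions at the score minimum came to 21.3 per Mb, against 11.1. The signal value of a peak, the authors' own measure of its height, had a pooled median of 14.1 over the scaffold candidates and 21.6 over the arm candidates. By name the medians were 18.9 for X_, 12.6 for Y_ and 12.7 for Un_ regions. The thresholded scaffold peaks had a median of 93.7 and the thresholded arm peaks one of 91.6, and the 95% intervals of these medians overlapped. The regions missing from the thresholded list were of like height, with a median of 116 for the 10 Y_ regions and 89.4 for the 47 Un_ regions. At the score minimum, 5 scaffold rows had a signal value under 20, and each of these 5 overlapped a higher row of the same list.

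Each region was then assigned to a family by the annotated mobile element or rRNA gene that its sequence matched best over at least 100 bp, and unmatched regions were searched for tandem repeats. The composition differed between the name classes. Among the X_ regions, 360 matched R1 (43.5%) and 342 a satellite with a long unit (41.4%). Among the Un_ regions, 433 were dodeca satellite (21.9%) and 998 matched other mobile elements (50.6%). Among the Y_ regions, 69 matched HeT-A or TART (16%) and 243 other mobile elements (56.5%). Among the 147354 arm regions, 143 matched R1 (0.0970%) and 86 matched HeT-A or TART (0.0584%).

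At the score minimum each name class had 1 leading family. Of the 74 X_ regions, 54 matched R1 (73.0%), 9 were the long-unit satellite, 7 matched other mobile elements, 1 matched the 28S rRNA and 3 were unmatched. Of the 47 Un_ regions, 25 were dodeca satellite (53.2%), 7 matched R1, 7 other mobile elements, 4 HeT-A or TART, 2 were 5-base repeats, 1 lay in the 28S rRNA gene and 1 was unmatched. Of the 10 Y_ regions, 6 matched HeT-A or TART, 2 other mobile elements and 2 nothing in the library. Both satellite families were defined from the unmatched regions at the score minimum, so their counts there are a description of how they were found.

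**Figure D2:**
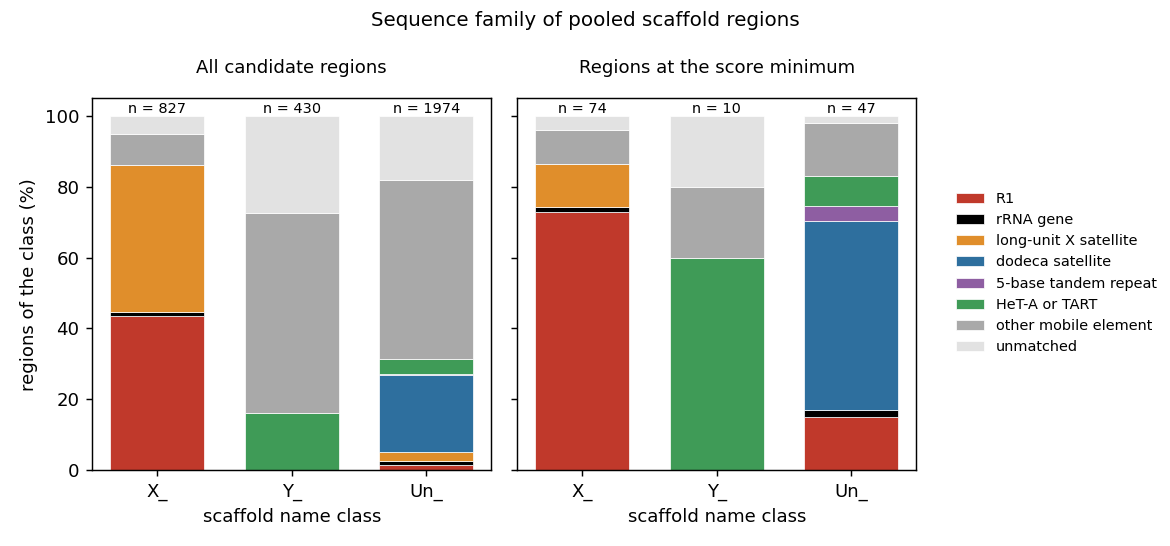
Share of regions (vertical axis, %) in each sequence family for the X_, Y_ and Un_ scaffolds of the pooled list, over all candidate regions (left) and over regions at the score minimum (right), with the number of regions above each bar. R1 (red) takes 43.5% of the X_ candidates and 73.0% of those at the score minimum, and the dodeca satellite (blue) takes 21.9% and 53.2% of the Un_ regions.

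R1 was the largest family among the high scaffold regions. It made up 387 of the 3231 scaffold candidates (12%) and 61 of the 131 at the score minimum (46.6%, 38.2% to 55.1%). The score minimum was reached by 15.8% of R1 regions (12.5% to 19.7%), against 4.05% of all scaffold regions, R1 included, and 1.11% of all candidates. On X_ scaffolds alone it was reached by 54 of 360 R1 regions (15.0%, 11.7% to 19.1%), against 8.95% of all X_ regions. Other mobile elements on X_ scaffolds reached it in 7 of 72 (9.72%, 4.79% to 18.7%), an interval that overlaps that of R1. The identity of the 61 to the matched R1 copy ran from 90.8% to 99.5%. Replicate 1 gave a like share, with 75 of 160 regions at the score minimum (46.9%), and replicate 2 gave 8 of 28 (28.6%). Of the 54 thresholded pooled R1 peaks all were on X_ scaffolds, and the 7 R1 regions on Un_ scaffolds were missing from the thresholded list. On the arms 18 of 143 R1 regions reached the score minimum (12.6%, 8.11% to 19.0%). The 17 of these on X were missing from the thresholded list, and the 1 on Y was in it.

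The highest R1 peak lay on X_DS485303:702-1037, with signal values of 245 in the pooled list, 195 in replicate 1 and 48.0 in replicate 2. The next was X_DS485266:840-1175, with 213, 159 and 56.6. The peak on X_DS484345:783-1118 had 192 in the pooled list and 187 in replicate 1, and no candidate region of replicate 2 held its summit. The highest R1 region outside the X_ names, Un_DS483961:2307-2642, had 193 in the pooled list, 71.2 in replicate 1 and 68.3 in replicate 2. The replicates are not known to share a scale, so their heights are read against the arms, where regions at the score minimum had a median ratio of replicate 1 to replicate 2 of 0.459 and 59 of 1319 were higher in replicate 1 (4.47%). All 3 R1 regions described with both heights were higher in replicate 1.

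R1 regions were spread along the whole element. Positions were read on the longest annotated R1 copy of the X arm, X:23234385-23239717, of 5333 bp. Of the 385 pooled R1 regions that could be placed, each of 10 equal stretches of the element held between 8.31% and 13.0%. The regions at the score minimum numbered 1 to 11 per stretch. Median signal values per stretch lay between 19.4 and 37.1.

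**Figure D3:**
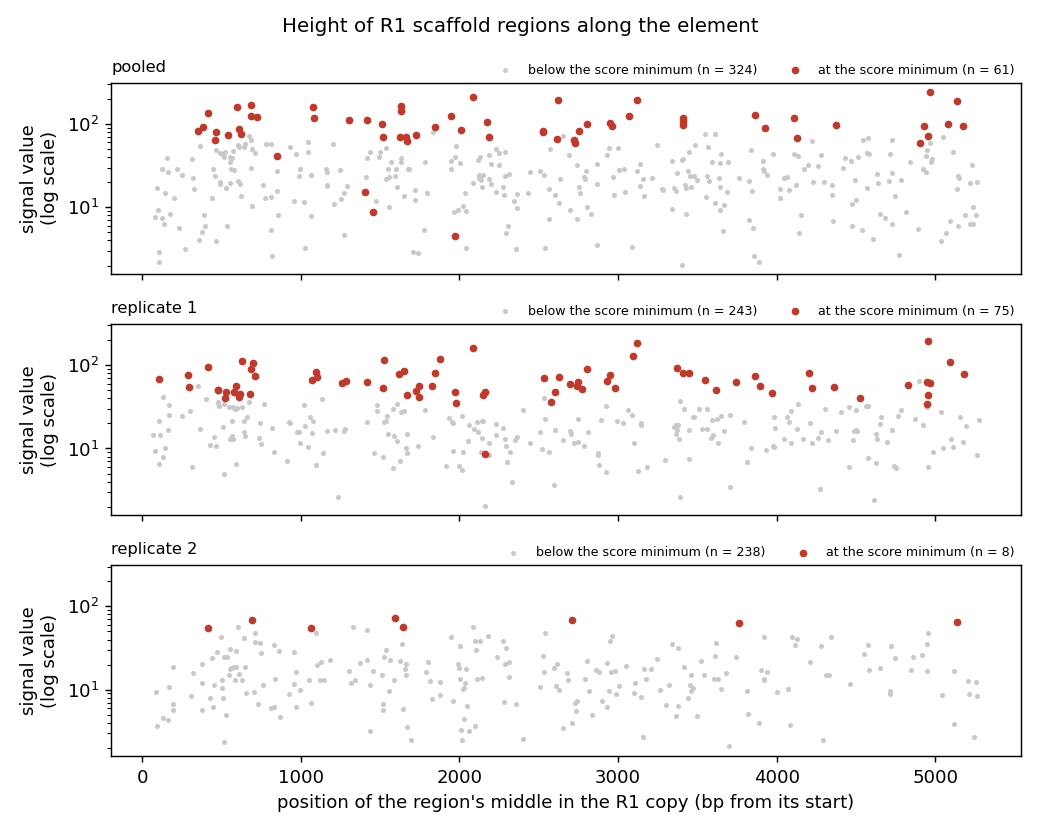
Signal value (vertical axis, log scale) of each scaffold region that matched R1 against the position of its middle along the R1 copy (horizontal axis, bp), for the pooled, replicate 1 and replicate 2 lists. Red points reached the score minimum (61, 75 and 8 regions) and lie along the whole element in the pooled list and in replicate 1.

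The highest candidates of any scaffold lay in ribosomal RNA sequence. Un_CP007120, of 76973 bp, carries a 28S rRNA gene, 28SrRNA:CR45844, at Un_CP007120:70955-74924. In replicate 1 the highest and second highest regions of the whole list lay in this gene, at Un_CP007120:73553-73722 with a signal value of 585 and at Un_CP007120:71737-72032 with 523. These cover 28S positions 2599 to 2768 and 783 to 1078. In the pooled list the region Un_CP007120:73446-73781 had 542 and ranked 19 of all candidates. Replicate 2 had 21 candidate regions on this scaffold, the highest at 42.6, and none in the 28S gene, and the conservative list had none there either. None of the 34 pooled regions of this scaffold was thresholded, although 3 reached the score minimum.

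A second 28S region was on an X_ scaffold and was found in both replicates. X_DS484057:500-835 matched 28S positions 2652 to 2886, with signal values of 509.7 in the pooled list (rank 23), 354 in replicate 1 (rank 3) and 175 in replicate 2 (rank 101). It was thresholded in each list and was the highest scaffold peak of each thresholded list. Both 28S regions thus lay over overlapping parts of the same gene, shown by the run of 44 shared bases printed above. They differed in that replicate 2 had a height for the X_ copy alone. Of the 20 pooled scaffold regions that matched this 28S, the other 18 had signal values of 2.04 to 38.2 and none reached the score minimum.

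Among the scaffolds, the dodeca satellite was found only on Un_ names, and only on those that RefSeq assigns to 3CEN. Its units ACCAGTACGGG (11 bases) and ACCGAGTACGGG (12 bases) were searched in doubled form, in any rotation and on both strands. Among regions that matched no annotated element, a doubled unit was found in 433 of the 3231 scaffold candidates (13.4%), on 93 scaffolds, and in 196 of the 147354 arm candidates (0.133%), of which 195 were on 3R. The 433 were 77.0% of the 562 regions on 3CEN scaffolds, and the other Un_ regions held none. A match says that the letters are there and nothing on binding to them.

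Of the 433 dodeca regions 25 reached the score minimum (5.77%, 3.94% to 8.38%), against 4.05% of all scaffold regions. The 25 lay on 19 scaffolds, and none was thresholded. The units were read from these 25 regions, so the share describes how the family was found. On the arms 7 of 196 reached the score minimum (3.57%, 1.74% to 7.19%), of which 4 were thresholded. The highest was Un_DS484064:1265-1600, with signal values of 151 in the pooled list, 83.4 in replicate 1 and 80.2 in replicate 2. The second, Un_DS483724:1439-1774, had 136, 70.2 and 66.6. In replicate 2 the highest Un_ region of all was dodeca, Un_DS483746:3683-3982, with 86.9 against 11.6 in replicate 1. Of the 24 dodeca regions at the score minimum with both heights, 14 were higher in replicate 1 (58.3%, 38.8% to 75.5%), with a median ratio of 1.05, against 0.459 on the arms.

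The long-unit satellite was the second family of the X_ scaffolds. Over the 9 scaffolds with a peak at the score minimum, the best of the spacings tried was 357 to 361 bp, with a median of 359 bp. At these spacings 45.4% to 74.8% of the bases were equal. The median is the unit length of the best known satellite of X, but only a range of spacings around that length was tried. Of its 393 scaffold regions 9 reached the score minimum (2.29%, 1.21% to 4.29%), against 4.05% of all scaffold regions and 1.11% of all candidates. The 9 lay 1 on each scaffold, and all were thresholded. The family was defined by likeness to these 9 regions, so its share describes how it was found. Of the 393 regions 342 were on X_ and 51 on Un_ names, and none of the 51 reached the score minimum. On the arms there were 31 such regions, 19 on X and 12 on 3L, and none reached it (0 to 11.0%). The highest of the 9 was X_DS484679:1305-1640, with signal values of 126 in the pooled list, 54.7 in replicate 1 and 76.7 in replicate 2. The next, X_DS484580:595-930, had 123, 49.4 and 72.7. Of the 9, 2 were higher in replicate 1 (22.2%, 6.32% to 54.7%), with a median ratio of 0.713, against 4.47% and 0.459 on the arms.

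HeT-A and TART led among the Y_ regions at the score minimum, though not among all Y_ candidates. Of 152 HeT-A or TART regions on scaffolds 10 reached the score minimum (6.58%, 3.61% to 11.7%), against 4.05% of all scaffold regions. Of the 10, 6 were on Y_ and 4 on Un_ names, and none was thresholded. On the arms 7 of 86 reached the score minimum (8.14%, 4% to 15.9%) and none was thresholded. The highest Y_ region of the pooled list, Y_DS485927:267-602, matched HeT-A and had signal values of 158 in the pooled list, 53.4 in replicate 1 and 85.1 in replicate 2. The TART-A region Y_DS485143:162-497 had 141, 72.2 and 75.6. In replicate 1 the highest Y_ region was Y_DS485975:442-737, with 106, which matched nothing in the library.

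The other mobile elements gave 16 regions at the score minimum among 1313 candidates (1.22%, 0.751% to 1.97%). This was near the 1.11% of all candidate regions and under the 4.05% of all scaffold regions. The share differed by name, with 7 of 72 on X_ (9.72%, 4.79% to 18.7%), 7 of 998 on Un_ (0.701%) and 2 of 243 on Y_ scaffolds (0.823%). Among the X_ scaffolds, 4 of the 7 such peaks matched F, a retrotransposon without long terminal repeats. The highest, X_CP007103:28513-28848, had signal values of 250.4 in the pooled list, 166 in replicate 1 and 91.6 in replicate 2. The F peak on X_DS485126:88-423 had 159 in the pooled list, 167 in replicate 1 and 33.7 in replicate 2. A peak in baggins, an element of the same class, at X_DS485647:784-1086 had 191, 132 and 74. Of the 12 such regions at the score minimum with both heights, 11 were higher in replicate 1 (91.7%, 64.6% to 98.5%), with a median ratio of 1.8.

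Tandem runs of a 5-base word, in at least 5 copies, were found in 5 scaffold regions (0.155%) and in 112 arm regions (0.0760%), with any word and on both strands. Both scaffold regions at the score minimum were on Un_ names. Un_DS485995:24-359 had signal values of 236 in the pooled list and 281 in replicate 1, and no replicate 2 region held its summit. It was also the highest Un_ region of the conservative list, with a score of 76, under the minimum. Un_CP007100:6132-6467 had 137 in the pooled list and 133 in replicate 1, again with no replicate 2 region at its summit. Replicate 2 did have 1 scaffold region with such a run, with a signal value of 61.3 and at the score minimum, and the highest of its 5 regions on Un_CP007100 had this value.

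**Figure D4:**
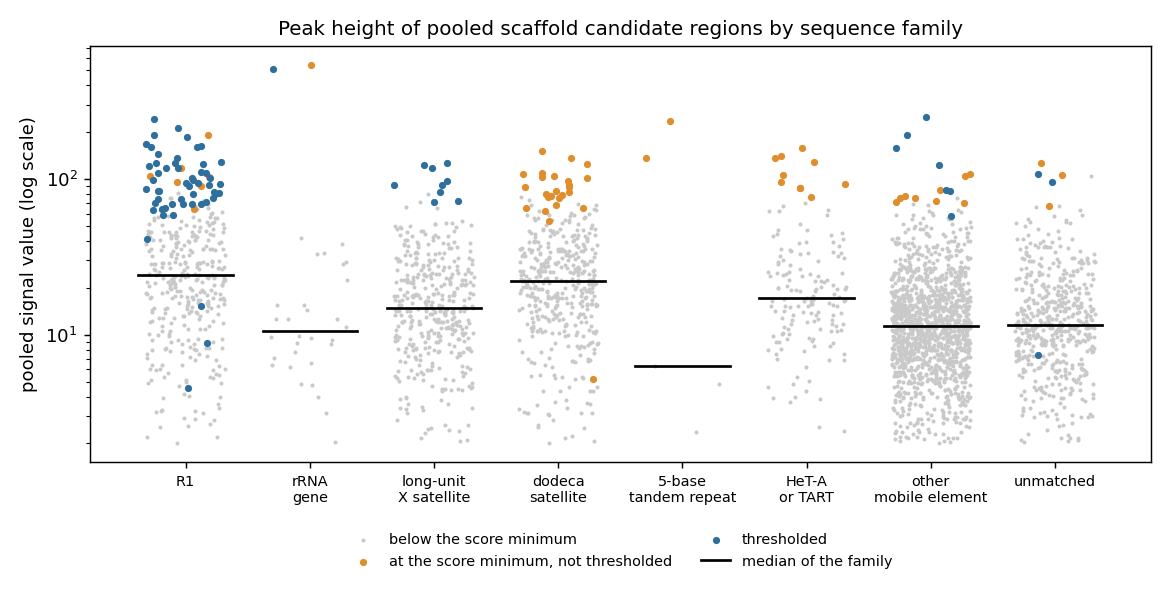
Pooled signal value (vertical axis, log scale) of all 3231 scaffold candidate regions by sequence family, with black bars at the family medians. Blue points were thresholded and orange points reached the score minimum but were not thresholded; the highest points are the 28S regions of 542 and 509.7, and medians run from 6.32 for the 5-base repeats to 24.3 for R1.

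The thresholded peaks were spread over many short scaffolds. The 74 pooled peaks lay on 51 X_ scaffolds, of which 37 held 1 peak each and 14 held more. X_CP007103, of 33320 bp, held most, with 5 of the 74 (6.76%, 2.92% to 14.9%), 3 in R1 and 2 in other mobile elements, and it also held 8 thresholded peaks in replicate 1 and 2 in replicate 2. X_DS483892 held 4, all in R1. X_DS483660, X_DS483885, X_DS483971 and X_DS484187 held 3 each, all in R1. X_DS484057, X_DS484088, X_DS484563, X_DS485050, X_DS485126, X_DS485281, X_DS485647 and X_DS485801 held 2 each, and of these X_DS485647 alone had none in R1.

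Of the 37 scaffolds with 1 thresholded peak, 25 had it in R1, with signal values of 58.9 to 245. These were X_DS483784, X_DS483843, X_DS483851, X_DS483893, X_DS483897, X_DS483905, X_DS483974, X_DS484061, X_DS484084, X_DS484099, X_DS484124, X_DS484125, X_DS484143, X_DS484268, X_DS484297, X_DS484345, X_DS484382, X_DS484907, X_DS485262, X_DS485266, X_DS485268, X_DS485299, X_DS485303, X_DS485310 and X_DS485778. The 9 with a satellite peak had values of 70.8 to 126 and were X_DS484166, X_DS484507, X_DS484580, X_DS484644, X_DS484679, X_DS484965, X_DS485096, X_DS485898 and X_DS485941. X_DS484178 and X_DS484185 had a peak in another mobile element, with 124 and 85.3, and X_DS484216 had an unmatched one of 107. Short scaffolds cut regions off, and 248 of the scaffold regions (7.68%) began or ended at a scaffold end, as did 11 of the 131 at the score minimum (8.40%).

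The scaffolds with most candidates were mostly not those with high peaks. Un_CP007081 held 51 candidates, none above 44.6, and Un_CP007085 held 48, none above 48.4. Un_CP007077, a 3CEN scaffold, held 39, of which 2 reached the score minimum. X_CP007103 held 36, X_CP007104 held 15 with none above 47.5, and X_DS483660 held 12. Y_CP007107, Y_CP007108 and Y_CP007109 held 44, 35 and 30, with no value above 39.1. The median number of candidates per scaffold was 2 in each name class, and 463 of the 1108 scaffolds held 1.

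The replicates shared most scaffolds with candidates, but few of the thresholded scaffolds of replicate 1 were thresholded in replicate 2. Candidates were found on 866 scaffolds in replicate 1 and on 842 in replicate 2, and 633 were common to both (73.1% and 75.2%). Thresholded peaks were found on 55 and 14 scaffolds, with 11 common (20% and 78.6%). Of the 91 thresholded scaffold peaks of replicate 1, 15 overlapped one of replicate 2 (16.5%, 10.3% to 25.4%), against 354 of 425 on the arms (83.3%, 79.5% to 86.5%). Of the 16 of replicate 2, 13 overlapped one of replicate 1 (81.2%, 57% to 93.4%), against 363 of 1034 on the arms (35.1%, 32.3% to 38.1%). The list of replicate 1 was thus the longer on scaffolds and the shorter on the arms. With any candidate region of the other replicate allowed, the scaffold shares were 79.1% and 100%.

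Heights of the replicates were then read at the summits of the pooled regions. Of the 914 scaffold regions with a height in both, 463 (50.7%, 47.4% to 53.9%) were higher in replicate 1, with a median ratio of replicate 1 to replicate 2 of 1.02. On the arms 22.1% of 60201 regions were higher in replicate 1, with a median ratio of 0.631. Among R1 regions of the scaffolds 126 of 168 were higher in replicate 1 (75%, 67.9% to 80.9%; ratio 1.4), and at the score minimum 44 of 48 (91.7%, 80.4% to 96.7%; ratio 1.76). For the thresholded arm peaks the count was 47 of 1250 (3.76%), with a ratio of 0.456.

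At the score minimum R1 did not stand alone, since other mobile elements had the same share, 11 of 12. Over all candidates the share for those elements was 47.6% of 250 (41.5% to 53.8%). It was 33.1% of 127 regions for the long-unit satellite (25.5% to 41.6%), 54.9% of 215 for dodeca (48.2% to 61.4%) and 40.7% of 54 for HeT-A or TART (28.7% to 54.0%). On the arms 22 of 44 R1 regions were higher in replicate 1 (50%, 35.8% to 64.2%). Of the 131 regions at the score minimum, 107 had a height in both replicates, 19 in replicate 1 alone and 5 in replicate 2 alone. Across the 914 regions Pearson's r of the log2 heights was 0.51 and Spearman's rho 0.49, and across the 107 they were 0.09 and 0.07. On the arms they were 0.30 and 0.26 over all 60201 regions with both heights, and 0.62 and 0.48 over the 1319 at the score minimum. The scaffold regions share libraries and repeat sequence and are not independent, so all these values are descriptions.

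**Figure D5:**
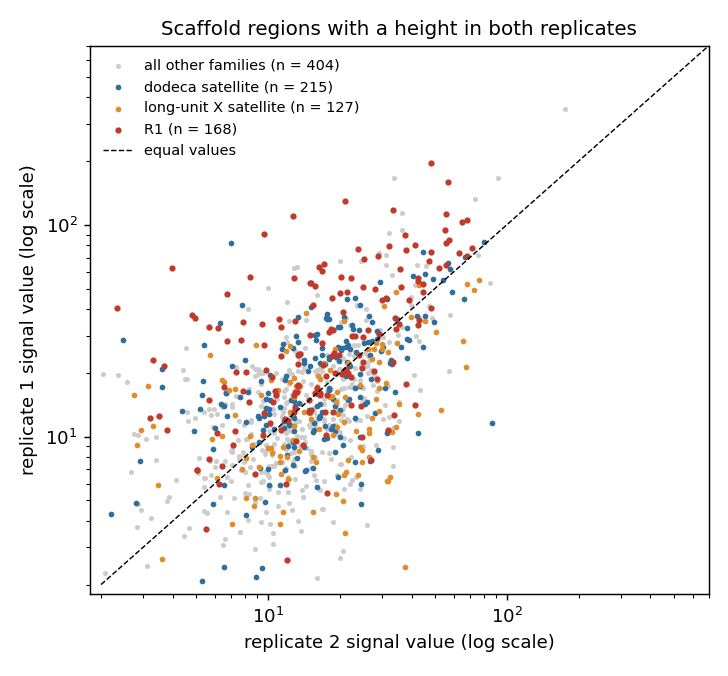
Signal value in replicate 1 (vertical axis, log scale) against that in replicate 2 (horizontal axis, log scale) at the summits of the 914 pooled scaffold regions with a height in both, with a dashed line at equal values. R1 regions (red) lie above the line in 126 of 168 cases and long-unit satellite regions (orange) in 42 of 127.

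Few scaffold regions lay in annotated genes. RefSeq annotates 33 genes on the scaffolds that hold a row in any list, none of them on an X_ scaffold, and 12 of the 33 overlapped a pooled candidate. In all, 46 of the 3231 regions overlapped a gene (1.42%, 1.07% to 1.89%). No gene could overlap a thresholded peak, since the thresholded scaffold peaks of every list lay on X_ names. The gene klhl10, which encodes a substrate adaptor of a ubiquitin ligase of the testis, had most, with 21 pooled candidates over Un_CP007081:53442-85529 and none above 44.6. The 28S pseudogene 28SrRNA-Psi:CR40596 had 9, with 1 at the score minimum and a highest value of 106 in the pooled list, 72.4 in replicate 1 and 31.2 in replicate 2. Its region at the score minimum, Un_CP007120:20630-20965, is the Un_ region counted as unmatched above. CG41561 had 5, none above 9.54, 28SrRNA-Psi:CR45848 had 3, none above 38.2, and Gpa2, a subunit of a glycoprotein hormone, had 2, none above 24.4.

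The summit windows of scaffold and arm peaks differed in base composition and in repetition. Over 50 bp on either side of the summit, the median A+T share was 46.0% for the 74 thresholded scaffold peaks and 63.4% for the 1421 thresholded arm peaks. For regions below the score minimum the medians were 54.5% on scaffolds and 52.5% on the arms, so the scaffold peaks lay below their background and the arm peaks above theirs. All 74 scaffold peaks were on X_ names, where the regions below the score minimum had a median of 59.4%. By family at the score minimum the median was 38.6% for dodeca, 43.6% for R1 and 68.3% for the long-unit satellite. The exact window occurred more than once in the genome for 14 of the 74 scaffold peaks (18.9%, 11.6% to 29.3%) and for 2 of the 1421 arm peaks (0.141%). Among scaffold regions below the score minimum it did so for 709 of 3088 (23.0%, 21.5% to 24.5%). On the X_ scaffolds alone it did so for 248 of 749 (33.1%, 29.8% to 36.6%), a larger share than among the 74 peaks. The part of read mapping to repeated copies in any of these values was not tested.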

How the data were processed

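Peak lists of 2 biological replicates, of both pooled, and a shorter conservative list were analysed, on genome build dm6 per the labels. The deposited signal value of a peak is the authors' own and has no stated scale, and the deposited score rises with reproducibility up to 1000. The −log10 of the irreproducible discovery rate in the deposited ranked lists, at least 2.00 at a score of 830, was used only to read that minimum. The sources used here name no aligner or peak caller, and no control was analysed. The depth is unknown, since no read counts were used. The labels call the replicates biological and say no more of how they were collected.

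All 1260 scaffold names matched 1 RefSeq Release 6 record each, no peak ran past a record's end, and 199 last peaks ended exactly there. Regions were aligned with BLAST+ 2.17.0 (expect value up to 1e-05, at least 100 bp) to 5380 annotated mobile elements and rRNA genes, 339 of them with nested elements cut out. The best match by bit score gave the family. Matching and overlaps were tested on simulated data. Copies of summit windows were counted on both strands, and windows that ran past a scaffold end were left out. Overlaps needed 1 bp. Tables were made with Python 3.11.15, pandas 2.3.3 and numpy 2.4.6.

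With 1 group there is no test: values are counts, medians and 95% Wilson intervals, which cover counting error only and treat regions as independent. The members and lists were chosen with earlier results of these data known. Scaffolds named are those with a pooled thresholded peak and the 3 of each name class with most candidates. Peaks named are the 5 highest of each thresholded list and the highest of each name class in each ranked list, and genes named are those with a thresholded peak and the 5 with most candidates. The highest region of each sequence family, the second of some, and the regions of the rRNA scaffold were named after their values were seen. Un_CP007077 tied with Un_DS483562, which is not described. Alternatives were each replicate's lists, the conservative list, merged rows, other overlap rules and other window sizes.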

Additional observations from a re-analysis of the deposited data

How the results depend on the processing

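No paired analysis was possible because there was 1 group. Of 73 alternative values over 19 results, 37 stayed within the 95% interval of the reported value. The split by name held under each list: no Y_ or Un_ region was thresholded, unless the score minimum alone was used, which gave 2.33% of Y_, 2.38% of Un_ and 4.05% of all scaffold regions, and put 7.87% of peaks on scaffolds. Leaving out 1 replicate, that is using the other's own list, gave ranges of 1.36% to 2.12% (candidates on scaffolds), 0.858% to 4.21% (scaffold regions thresholded), 2.83% to 14.2% (X_), 0 to 0 for Y_ and for Un_, 1.52% to 17.6% (thresholded peaks on scaffolds), 8.79% to 12.5% (peaks on the leading scaffold), 0.643% to 3.19% (missing from the thresholded list), 28.6% to 46.9% (R1 at the score minimum), and medians of 61.8 to 67.9 on scaffolds and 56.0 to 77.1 on arms. The lowest shares thresholded came without replicate 1 and the highest without replicate 2. The conservative list gave 1.17% (all) and 4.63% (X_). Merged rows gave 2.28% of candidates on scaffolds, and rows above the list's median signal 1.31%. Any candidate of the other replicate in place of a thresholded peak gave overlaps of 79.1% and 100%. Rank percentiles were 99.5 (scaffolds) and 99.4 (arms). Copies were found for 50% of scaffold peaks with 25 bp on either side and 1.35% with 100 bp (arms 0). Regions that did not pass had A+T medians of 54.5% and 52.5% (arms), and 0.998% of those on arms had copies. Arm A+T medians were 64.7% and 62.2% with 25 and 100 bp. Added after the data were seen, R1 regions higher in replicate 1 came to 91.7% at the score minimum, and all scaffold regions without R1 to 45.2%. The cause was not tested.

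The depth of both libraries is unknown, and no interval here covers it. Heights of the replicates are not known to share a scale, and regions in repeats are not independent of their copies.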
